A study of Mus musculus with 13 samples.

Results

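Among the T cell receptor (TCR) α chains of rescued regulatory T (Treg) cells, those with 2 hydrophobic residues side by side in the middle of the CDR3 loop were described here. A member was a functional clonotype whose CDR3 had at least 9 residues and carried F, I, L, M, V, W, Y or C at both residue 6 and residue 7, counted from the conserved cysteine as residue 1. Of 90369 listed rows in 13 samples, 78425 were functional clonotypes, and the rule found 712 members among them (0.908%), with a share per sample between 0.641% and 1.13%. A functional clonotype was a row with a CDR3 free of stop codons and frameshifts, a TRAV and a TRAJ segment, and its own nucleotide sequence. In 373 functional rows, 1 of them with the pair, the CDR3 did not start with C, and residues were counted from the first letter.

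All mice were male C57BL/6 animals of genotype Foxp3LSL/yCd4creERT2 given 4-OHT (4-hydroxytamoxifen) once, at postnatal day 14. In this model a removable Thy1.1 stop cassette silences Foxp3, the gene that defines Treg cells, and a tamoxifen-activated Cre made from the Cd4 locus removes it, in thymocytes as well as in mature CD4 T cells, so that Foxp3 and a GFP reporter come back in a single cohort of cells. The GFP+Thy1.1- CD4 T cells, pooled from spleen and lymph nodes, were collected 1.5 months (n = 2, age 8 weeks), 3 months (n = 4, age 3.5 months), 5 months (n = 2, age 5.5 months) or 7 months (n = 5, age 7.5 months) after the dose. No control T cells were in the series, every group carried the same alleles and treatment, and time after 4-OHT cannot be told apart from age. The labels number the replicates without saying that each came from a separate animal. The p-values below take the samples as independent units, and whether they hold for animals cannot be told.

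The CDR3 is the part of the receptor that lies over the peptide in the groove of an MHC molecule. In the α chain it is made by joining a V to a J segment, with bases trimmed and added at the junction, so its middle residues come from V, from J or from the added bases. Hydrophobic residues at CDR3 positions 6 and 7 are best known from the TCR β chain, where they have been linked to the strength with which a receptor binds self peptides. The α chain alone was sequenced here, and no binding was measured.

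The total count per sample ran from 509818 to 936831, of which 93.1% pooled were functional, and a functional clonotype without the pair had a median of 36 to 100 counts. The intervals on shares of counts and of pooled clonotypes cover counting error only and not the spread between samples, and a larger count can come from more cells, more receptor mRNA per cell or uneven amplification, which cannot be told apart. The 3-month replicate 4 stood out by sharing 707 nucleotide clonotypes with 5-month replicate 1 and 775 with 1.5-month replicate 1. These were 13.1% and 11.7% of the smaller library, against a median of 3.44% over 78 library pairs. Clonotypes whose share of counts in some other library was 100 times higher or more were removed as an alternative. This took away 33 of 712 pair rows and 2477 of 78425 functional rows. The values it moved by over 1.5 times or across 0.05 are given beside those results. Chains of other cell types were rare: γδ V genes took 0.0156% to 0.0739% of counts, and the 16 invariant NKT chains and 1 MAIT chain included none with the pair. At the functional share of 0.908%, so few chains would rarely include a member.

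The members that took the largest share of counts at each time point, the pair sequences found in most samples, and the TRAV15 chains that stand out in the V analysis are shown as CDR3 coding strands from the deposited tables, with codons 6 and 7 in capitals. A number of samples on a line counts those with the same amino-acid sequence, which other strands or V genes may encode. With the V gene named, each TRAJ5 strand was seen in 1 sample.
Largest at 1.5 months, TRAV3-3 with TRAJ38: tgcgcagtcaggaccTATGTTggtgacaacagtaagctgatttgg
Largest at 3 months, TRAV3D-3 with TRAJ4: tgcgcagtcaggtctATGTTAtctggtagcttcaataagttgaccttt
Largest at 5 months, TRAV15D-1-DV6D-1 with TRAJ15: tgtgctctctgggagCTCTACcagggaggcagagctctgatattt
Largest at 7 months, TRAV4N-4 with TRAJ9: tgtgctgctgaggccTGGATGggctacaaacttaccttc
Found in 6 samples, here TRAV13N-1 with TRAJ5: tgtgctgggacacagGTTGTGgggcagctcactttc
Found in 4 samples, here TRAV14D-3-DV8 with TRAJ5: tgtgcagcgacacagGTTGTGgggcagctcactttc
Found in 4 samples, here TRAV3-3 with TRAJ23: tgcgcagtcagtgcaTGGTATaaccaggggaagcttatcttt
TRAV15 chain found in 3 samples, here TRAV15-1-DV6-1 with TRAJ21: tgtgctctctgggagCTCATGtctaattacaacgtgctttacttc

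The largest member of the series by count, the TRAV3D-3 chain in 3-month replicate 2, had 1481 counts, which was 0.168% of functional counts (95% Wilson interval 0.160% to 0.177%) and rank 33 in its sample. It was seen in that sample alone. The TRAV4N-4 chain led at 7 months with 1158 counts in replicate 1 (0.199%, rank 22), and the same amino acids were found with 117 counts in replicate 2 and 1 count in 5-month replicate 1. The TRAV3-3 chain with TRAJ38 led at 1.5 months with 812 counts in replicate 1 (0.147%, rank 20), and 3-month replicate 4 held 3 counts of it. The TRAV15D-1-DV6D-1 chain, built without inserted bases, led at 5 months with 699 counts in replicate 1 (0.129%, rank 87). Its amino-acid sequence was encoded by 6 nucleotide sequences over 2 samples, with 835 counts in 5-month replicate 1 and 428 in 3-month replicate 2. The largest member in each of the 13 samples ranked between 20 and 171.

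The first question was whether the share of such chains moved as the rescued Treg cells aged in the host, and no change beyond the spread between samples was found. At 1.5 months the 2 samples held 90 and 59 pair clonotypes, 1.13% and 0.909% of their functional clonotypes. At 3 months the 4 samples held 56, 44, 51 and 65, with shares of 0.789%, 0.771%, 0.835% and 0.978%. At 5 months 47 and 48 were found, with shares of 0.873% and 0.996%. The 5 samples at 7 months held 44, 70, 36, 42 and 60, and their shares of 0.870%, 1.10%, 0.641%, 0.834% and 0.980% spanned nearly the whole range of the series. The time points overlapped.

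The share of clonotypes averaged 1.02% with an SD of 0.154 over the 2 samples of 1.5 months, 0.843% (SD 0.0937) over the 4 of 3 months, 0.934% (SD 0.0870) over the 2 of 5 months and 0.886% (SD 0.173) over the 5 of 7 months. The later groups were set against the 1.5-month group in a two-sided exact permutation test that enumerated 540540 arrangements of the samples and took the largest statistic of the 3 comparisons. The differences in percentage points were -0.175 at 3 months, -0.0835 at 5 months and -0.132 at 7 months, with exact permutation p-values from 0.359 to 0.855 and a pooled SD of 0.140. Without 1 sample, the 3-month difference ran from -0.283 to -0.0662, the 5-month one from -0.192 to 0.0251 (positive without 1.5-month replicate 1) and the 7-month one from -0.241 to -0.0236. Of functional counts, the pair took on average 0.832%, 0.853%, 0.797% and 0.713% in the same order of time points, with SDs of 0.216, 0.129, 0.275 and 0.162. These differed from the first by 0.0209, -0.0351 and -0.119 percentage points, with exact permutation p-values of 0.998, 0.994 and 0.726. Each of these turned sign without 1 sample, with ranges of -0.132 to 0.174, -0.230 to 0.160 and -0.272 to 0.0341, so neither measure gave a direction that held at all 3 times. Adjusted over the 6 comparisons by Benjamini-Hochberg, the exact permutation p-values were all 0.998.

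A gradual trend over months was not resolved either. For the share of clonotypes, Pearson's r was -0.142 (permutation p = 0.642) and Spearman's rho was -0.127 (permutation p = 0.678), with n = 13, two-sided. For the share of counts, r was -0.361 (permutation p = 0.221) and rho was -0.446 (permutation p = 0.128). Adjusted over the 2 trends, the permutation p-values of r were 0.642 and 0.441. When the 2 samples of 1.5 months, which lie farthest from the median time, were left out, r was 0.146 for clonotypes (permutation p = 0.669) and -0.399 for counts (permutation p = 0.217). For clonotypes, r was also positive without 7-month replicate 3 alone (0.0572), and it was -0.341 without 7-month replicate 2. The sign of the clonotype trend thus depended on the samples kept. Without clonotypes far more abundant in another library, r for clonotypes was -0.0711 (permutation p = 0.814). With the TRAV15 family left out, a setting added once the data had been seen, r was 0.00415 for clonotypes (permutation p = 0.989). For counts it was then -0.102 (permutation p = 0.739).

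**Figure D1:**
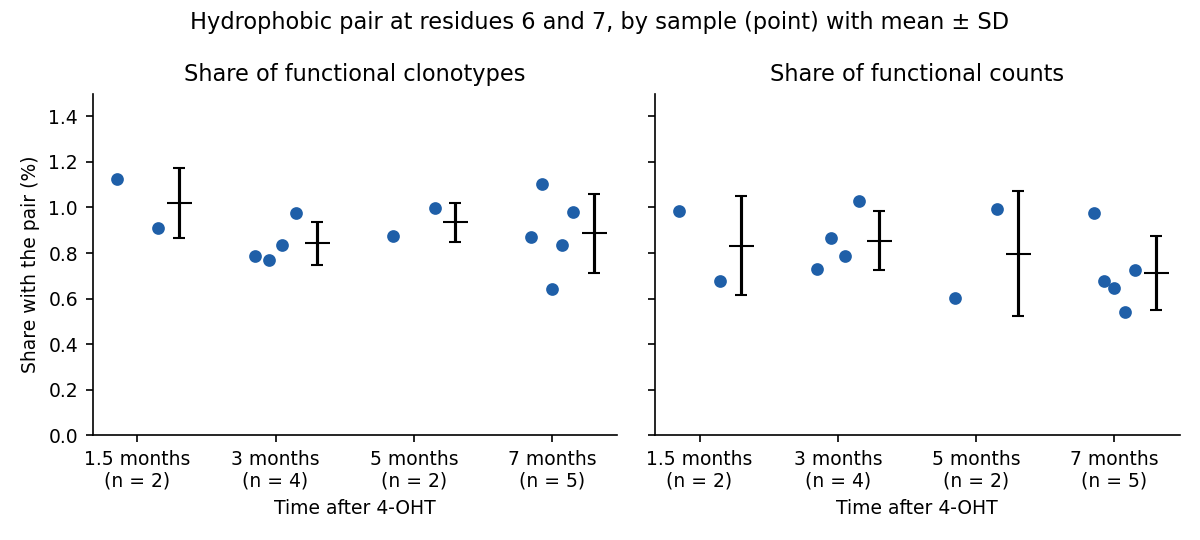
Share of functional clonotypes (left) and of functional counts (right) with the hydrophobic pair, in percent, for each sample (points) by time after 4-OHT, with the group mean ± SD beside them (n = 2, 4, 2 and 5). The samples lie between 0.641% and 1.13% of clonotypes and between 0.541% and 1.03% of counts, and the time points overlap.

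The pair was rarer than its residues alone would give. A hydrophobic residue stood at position 6 in 14.3% of functional clonotypes and at position 7 in 10.7%, whose product is 1.54%, while both stood together in 0.909% of the clonotypes with at least 9 residues. Both positions depend on the same segments and on length, so this is a description and not a test. Along the loop, adjacent hydrophobic residues were frequent where V and J supply conserved residues and rare in between. Residues 2 and 3 were both hydrophobic in 3.53% ± 0.352 of clonotypes (SD over 13 samples, as for the other windows), and residues 3 and 4 in 3.91% ± 0.233. Residues 4 and 5 gave 0.956% ± 0.126 and residues 5 and 6 gave 2.05% ± 0.238. Residues 6 and 7, here without the minimum length, gave 0.959% ± 0.122, and residues 7 and 8 gave 0.592% ± 0.113, the lowest of the 10 windows. The share rose again to 1.60% ± 0.184 at residues 8 and 9, 4.35% ± 0.362 at residues 9 and 10, 12.5% ± 0.620 at residues 10 and 11 and 28.6% ± 0.794 at residues 11 and 12.

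**Figure D2:**
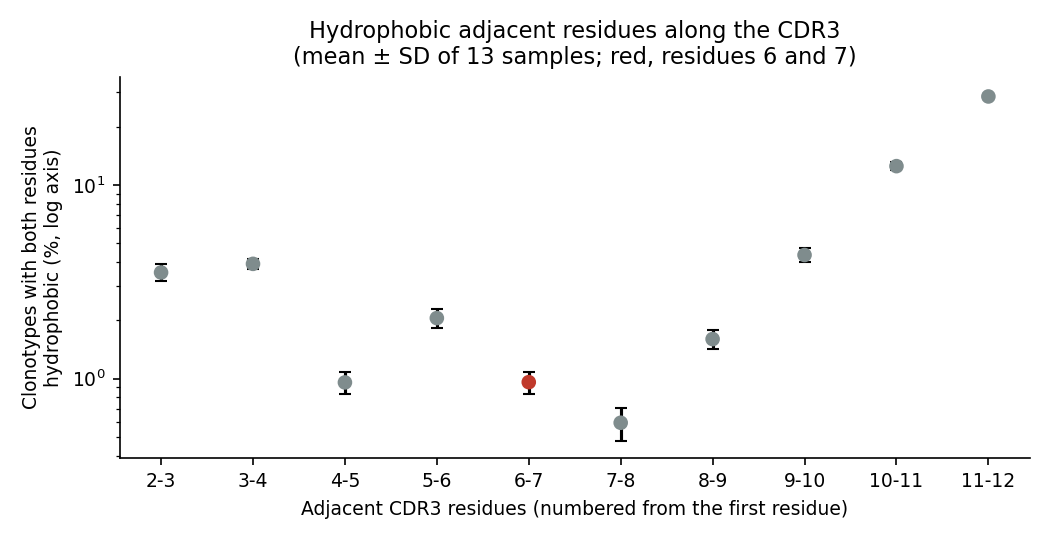
Percentage of functional clonotypes with both residues hydrophobic (log axis) for each window of adjacent CDR3 residues, as mean ± SD of 13 samples, with residues 6 and 7 in red. The window of residues 6 and 7 lies at 0.959%, between a low of 0.592% at residues 7 and 8 and 28.6% at residues 11 and 12.

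Of 64 possible residue pairs, 47 were found, and 5 of them made up 46.6% of the members. Tyrosine followed by tyrosine was the most frequent (97 clonotypes, in all 13 samples), then leucine-tyrosine (85 clonotypes, 13 samples), leucine-methionine (52 clonotypes, 12 samples), leucine-valine (49 clonotypes, 11 samples) and phenylalanine-tyrosine (49 clonotypes, 12 samples). Leucine was the residue most often found at position 6 (294 of 712) and tyrosine at position 7 (310 of 712). Among functional clonotypes as a whole, these residues stood there in 2.70% and 7.40%. Both residues were aromatic (F, W or Y) in 175 members and aliphatic (I, L, M or V) in 291, and 9 members held a cysteine. Of these 9, 7 had a functional clonotype with a larger count 1 base away in the same sample, at 8.92% to 35.2% of its count. The same held for 100 of the other 703 members (14.2%) and for 21.7% of functional clonotypes without the pair, and the part of sequence errors in these rows was not tested. Single residue pairs leaned on single segments: TRAV15 supplied 30 of the 52 leucine-methionine, 29 of the 49 leucine-valine and 29 of the 38 leucine-isoleucine members, and TRAJ15 supplied 31 of the 85 leucine-tyrosine members. The median count of a clonotype was 46 for tyrosine-tyrosine, 51 for leucine-tyrosine, 37.5 for leucine-methionine, 41 for leucine-valine and 15 for phenylalanine-tyrosine.

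The number of tyrosine-tyrosine clonotypes was 12 and 6 at 1.5 months, between 1 and 13 at 3 months, 6 and 5 at 5 months, and between 4 and 11 at 7 months, so the groups overlapped. Its mean share of the pair clonotypes was 11.8% ± 2.24 (SD, n = 2), 11.3% ± 9.23 (SD, n = 4), 11.6% ± 1.66 (SD, n = 2) and 17.5% ± 6.16 (SD, n = 5). A test across residue pairs was planned with edgeR's quasi-likelihood test after a filter on low numbers. The filter left tyrosine-tyrosine alone, which the scaling then set against itself, and the test is void (0% called). Without the filter, 0 of 47 pairs passed an adjusted p of 0.05 in either contrast with edgeR. At an unadjusted p under 0.05, edgeR called 0 of 47 between 7 and 1.5 months and 2 of 47 (4.26%) between 7 and 3 months. The smallest edgeR p-values belonged to tyrosine-valine between 7 and 1.5 months, with 6 clonotypes at 1.5 months and 2 at 7 months (edgeR adjusted p = 0.708). Between 7 and 3 months the smallest belonged to phenylalanine-methionine, with 7 clonotypes at 3 months and 1 at 7 months (edgeR adjusted p = 0.938).

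The V segment of one family stood apart. TRAV15, a family of 9 annotated genes in the T cell receptor α locus (GRCm38, chr14:52863299-53767180, plus strand) of which several also rearrange in the δ chain, as their DV6 names show, held the pair in 125 of its 919 functional clonotypes (13.6%; per sample 13.9% ± 5.94, SD, n = 13). All other families together held it in 0.757%. TRAV15 thus supplied 17.6% of the members and 1.17% of functional clonotypes. The share of TRAV15 clonotypes with the pair was 20.4% and 10.3% at 1.5 months, 7.69%, 11.3%, 16.2% and 13.6% at 3 months, 23.8% and 21.3% at 5 months, and 9.52%, 16.4%, 2.99%, 10.3% and 16.7% at 7 months. It was above the share of all other families in each of the 13 samples, where that share ran from 0.613% to 0.955%.

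Leucine stood at position 6 in 124 of the 125 TRAV15 members, as in both printed TRAV15 chains, and in 58.8% of all TRAV15 clonotypes. Codon 6 lay within the V segment alone in 69.6% of the TRAV15 members, against 6.98% of the members of other families. In another 5.60% and 0.511% it lay in both V and J. Codon 7 of the TRAV15 members lay wholly in J alone in 32.0%, wholly in V alone in 20.8%, in both in 1.60%, and wholly in neither in 45.6%. TRAV15 members had 16.1 residues on average and other TRAV15 clonotypes 15.5, and their median counts were 68 and 62. Within the family, TRAV15-2-DV6-2 had the pair in 20.8% of 212 clonotypes, TRAV15N-1 in 18.5% of 135 and TRAV15-1-DV6-1 in 13.5% of 289, against 8.05% of 174 for TRAV15D-2-DV6D-2 and 2.75% of 109 for TRAV15D-1-DV6D-1. The sequences of these genes were not compared here, and reads may have been split between similar copies.

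The numbers of clonotypes per V family were compared between members and other functional clonotypes with edgeR's quasi-likelihood test and the sample as a block. Since residues 6 and 7 are partly encoded by V and J, these tests show where the members come from and do not stand apart from the rule. With TMM scaling, 3 of 17 V families passed an adjusted p of 0.05 as higher among members (17.6%) and 8 as lower (47.1%). With library totals as the only scaling, 4 were higher (23.5%) and 7 lower (41.2%), of which 3 and 7 were called by both. The member columns hold 36 to 90 clonotypes with many zeros, and moving to totals raised the median log2 fold change by 0.15 for V families and by 0.72 for J genes, so folds are given from the totals. TRAV15 was higher by a log2 fold change of 4.10 ± 0.19 (SE, edgeR adjusted p = 2.64e-20). TRAV16 (34 members, 0.91 ± 0.31, adjusted p = 0.0133) and TRAV12 (119 members, 0.54 ± 0.15, adjusted p = 0.00213) were also higher. DESeq2 called TRAV15 alone as higher (TRAV16 0.63, adjusted p = 0.0534, and TRAV12 0.27, adjusted p = 0.146). With TMM, the TRAV12 call was lost with at least 2 counts per clonotype (edgeR adjusted p = 0.106) and with F, I, L, M, V and W only (edgeR adjusted p = 0.375). The TRAV16 call was lost without 1.5-month replicate 2, 3-month replicate 1, 2 or 4, 5-month replicate 2 or 7-month replicate 4 (edgeR adjusted p from 0.0504 to 0.135). TRAV6 supplied 88 members and was higher with totals (0.40 ± 0.18, adjusted p = 0.0461). With TMM it did not pass over all samples and clonotypes (0.26, edgeR adjusted p = 0.196), and it passed without TRAV15 (0.44, edgeR adjusted p = 0.0317) and without 1.5-month replicate 1.

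Among families lower in members, TRAV14 (50 of 11773 clonotypes with the pair) had a log2 fold change of -1.10 ± 0.20 (SE, edgeR adjusted p = 3.12e-05). TRAV7, the most frequent family, supplied 96 members and had -0.49 ± 0.13 (edgeR adjusted p = 0.00197) and TRAV4 -0.91 ± 0.22 (edgeR adjusted p = 9.47e-04). Among families with at least 500 functional clonotypes, the lowest shares belonged to TRAV17 (1 of 793, 0.126%), TRAV19 (1 of 679, 0.147%) and TRAV21 (2 of 880, 0.227%). TRAV3, with 45 members of 4369 clonotypes, stood near the mean of all families (1.03%). TRAV11, the family used by invariant NKT cells, gave 0 of 449, which allows a share of up to 0.668%. TRAV2, below the minimum size for naming and outside the filter of the test, had 13 of 257 (5.06%) and was picked out after its value was seen. With no filter on low segments it was tested and was higher (TMM log2 fold change 2.31, edgeR adjusted p = 3.90e-04), 1 of 4 families of 22 called higher there.

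**Figure D3:**
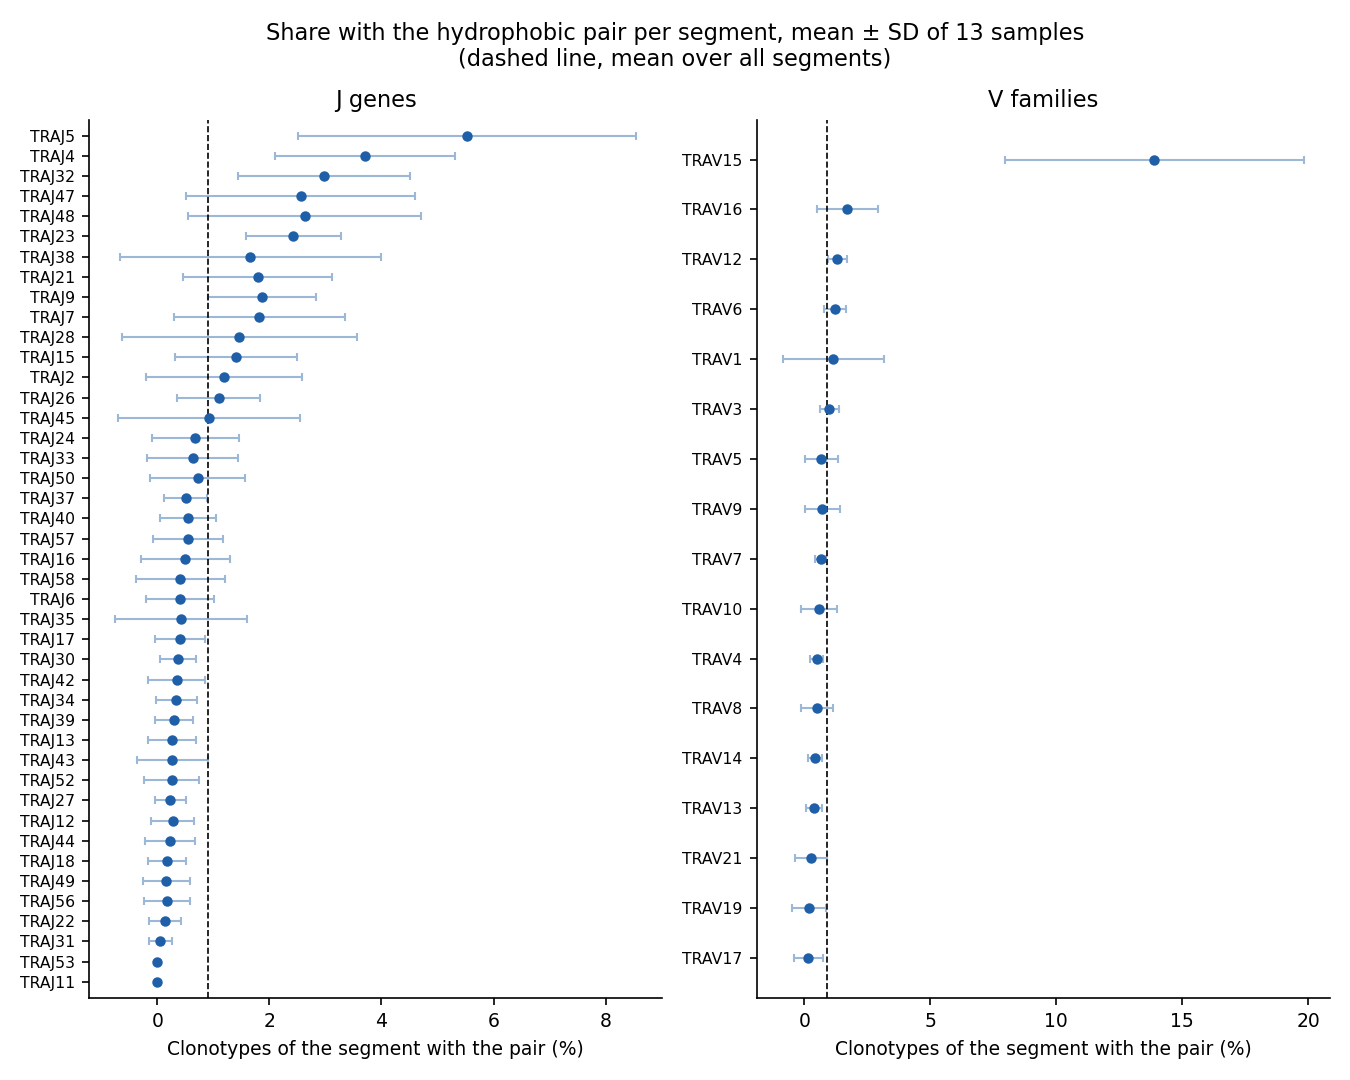
Percentage of each J gene's (left) and V family's (right) functional clonotypes that bear the hydrophobic pair, as mean ± SD of 13 samples, for segments with at least 500 functional clonotypes, with the mean share of all clonotypes as a dashed line. TRAV15 lies at 13.9%, far from the other V families, while the J genes form a gradient from 0% to 5.52%.

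The J genes formed a gradient rather than 1 outlier. The highest shares were those of TRAJ5 (37 of 674 clonotypes, 5.49%), TRAJ4 (54 of 1413, 3.82%) and TRAJ32 (60 of 1941, 3.09%). TRAJ23 (86 members), TRAJ21 (79) and TRAJ15 (62) supplied the most members. At the other end, TRAJ31 had the pair in 2 of 4248 clonotypes (0.0471%), and TRAJ11 and TRAJ53 in 0 of 824 and 0 of 701, which allows shares of up to 0.364% and 0.428%. With TMM scaling, 6 of 43 J genes were higher among members (14.0%) and 27 lower (62.8%) at an edgeR adjusted p under 0.05. With library totals, 10 were higher (23.3%) and 20 lower (46.5%), of which 6 and 20 were called by both. No gene was called in opposite directions.

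The 6 J genes higher under both were TRAJ5 (log2 fold change 2.66 ± 0.31 from totals, SE, edgeR adjusted p = 3.25e-15), TRAJ4 (2.11 ± 0.25, adjusted p = 3.25e-15), TRAJ32 (1.80 ± 0.23, adjusted p = 8.11e-13), TRAJ23, TRAJ48 and TRAJ47. TRAJ31 was lowest among called genes with members (-4.26 ± 0.68, edgeR adjusted p = 7.95e-09), followed by TRAJ22 (4 of 3161 clonotypes, -2.84 ± 0.55, adjusted p = 2.29e-06). TRAJ27 had 8 of 3129 (-1.84 ± 0.45, edgeR adjusted p = 2.47e-04). TRAJ21 and TRAJ15 were higher with totals (1.01 ± 0.26 and 0.61, edgeR adjusted p = 2.94e-04 and 0.0411), and neither passed with TMM (0.28 and -0.13, adjusted p = 0.346 and 0.661). With the TRAV15 family left out, an alternative added once the data had been seen, TMM called 3 J genes higher (TRAJ5, TRAJ4 and TRAJ32) and 30 lower. The same 3 were the J genes called higher with at least 2 counts per clonotype. Without clonotypes far more abundant in another library, TMM called the 6 J genes named above higher and 28 lower. With F, I, L, M, V and W only, which takes tyrosine and cysteine away, TRAJ5 and TRAJ4 were the J genes called higher with TMM. TRAJ32, TRAJ23 and TRAJ48 were then lower with TMM (log2 fold changes -1.20, -1.39 and -2.63, edgeR adjusted p up to 6.16e-04) but not with library totals, added once the data had been seen (0.54, 0.36 and -0.88, edgeR adjusted p from 0.337 to 0.462), so no direction is given for them on these letters. TRAJ5 and TRAJ4 stayed higher with totals (3.64 and 3.06, edgeR adjusted p up to 2.90e-25). Without 1.5-month replicate 1 or 7-month replicate 2 TRAJ47 was no longer called, and without 7-month replicate 4 TRAJ48 was not.

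The germline ends of 5 of these J genes are shown to compare their residues with those of the members. They are printed from the GENCODE transcripts of GRCm38, plus strand, up to the last CDR3 codon, with the codons of hydrophobic residues in capitals.
TRAJ5, in chr14:54213777-54213838: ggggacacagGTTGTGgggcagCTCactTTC
TRAJ4, in chr14:54216291-54216353: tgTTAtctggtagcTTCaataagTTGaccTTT
TRAJ32, in chr14:54186101-54186166: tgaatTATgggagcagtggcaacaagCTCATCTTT
TRAJ23, in chr14:54196081-54196140: tgaatTATaaccaggggaagCTTATCTTT
TRAJ31, in chr14:54187895-54187951: ggaatagcaataacagaATCTTCTTT

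In the germline ends read here, TRAJ5 alone encoded 2 adjacent hydrophobic residues ahead of its last 4 codons. Of 34 valine-valine members, 33 used it. All 28 methionine-leucine members used TRAJ4, whose leading tg can end a methionine codon ahead of its leucine, as in the 3-month chain printed above. The deposited positions of V and J placed both codons of that chain in J. There J began earlier than in the germline end read here. TRAJ32 and TRAJ23 carry a tyrosine as their second codon, and TRAJ32 alone supplied 21 of the 49 phenylalanine-tyrosine and TRAJ23 alone 30 of the 97 tyrosine-tyrosine members. The 10 J genes with a hydrophobic residue in the first or second codon had the pair in 364 of 18032 clonotypes (2.02%). The other 32 with a germline sequence had it in 345 of 59180 (0.583%), and among them the share ran from 0% to the 5.49% of TRAJ5. TRAJ44, with 3 members of 1212 clonotypes, was matched to no germline sequence here and is in neither group. TRAJ40, which begins with a valine, had 0.527%, below the mean.

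In most members at least 1 of the codons held an inserted base. At least 1 base of codon 6 or 7 lay between V and J in 68.1% ± 4.47 of the members (SD, n = 13 samples) and in 26.5% ± 1.19 of the other clonotypes with at least 9 residues. In another 4.03% ± 1.92 of the members and 1.29% ± 0.170 of the others, a codon ran across the border of V and J without an inserted base. By the deposited positions of V and J, both codons were encoded by J alone in 16.6% ± 5.69 of the members and 68.2% ± 1.22 of the others. The arrangement found most often among members was a codon 6 neither wholly V nor wholly J, followed by a codon 7 encoded by J alone. It made up 49.1% ± 7.88 of the members and 21.4% ± 0.843 of the others.

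Members had longer loops with more inserted bases in each of the 13 samples. Their mean CDR3 length was 14.7 residues ± 0.243 (SD, n = 13), against 13.5 ± 0.0202 for other clonotypes of at least 9 residues. The within-sample difference was 1.19 ± 0.239 residues (SD), and it ran from 0.827 to 1.55. A two-sided exact sign-flip permutation test gave 2.44e-04, the smallest p that 13 samples allow, and 8.54e-04 after Benjamini-Hochberg adjustment over the 7 within-sample comparisons. The number of bases between V and J was 3.19 ± 0.450 in members and 2.15 ± 0.0516 in the others, a difference of 1.04 ± 0.452 bases (SD, 13 of 13 samples above 0, exact sign-flip permutation p = 2.44e-04, adjusted exact p = 8.54e-04). Compared within J genes, the differences were 1.11 residues and 1.03 bases. Length shifts which segment covers residues 6 and 7, so it is not independent of the rule. Inserted bases can lie in codons 6 and 7 and set their residues, so their number is not independent of it either.

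By length, the share with the pair was 0.527% ± 1.16 (SD over 13 samples, as for the lengths that follow) at 10 residues, 0.0825% ± 0.159 at 11, 0.585% ± 0.284 at 12, 0.284% ± 0.0926 at 13 and 0.555% ± 0.199 at 14. It was 1.45% ± 0.634 at 15, 5.17% ± 1.28 at 16 and 7.53% ± 4.27 at 17 residues. Loops of 16 residues supplied 26.1% of the members and 4.34% of the other clonotypes. Without TRAV15, the pooled share was 4.63% at 16 residues and 4.83% at 17. By inserted bases it went from 0.597% ± 0.141 in junctions without any to 2.66% ± 1.34 in those with 7 or more. Just inside the length limit, 13 of the 124 functional clonotypes of 9 residues were members (10.5%), 11 of them with TRAJ21, and counts of 1 to 589. Just outside it, 33 of the 55 functional rows of 8 residues had hydrophobic residues at both positions, with counts of 1 to 610.

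**Figure D4:**
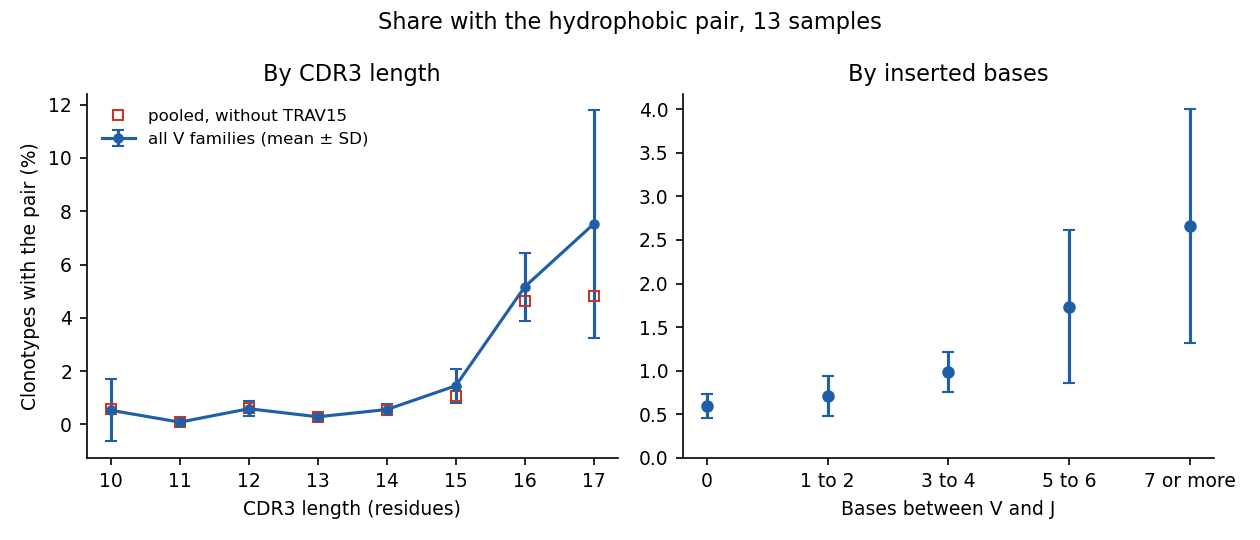
Percentage of functional clonotypes with the hydrophobic pair by CDR3 length in residues (left) and by the number of bases between V and J (right), as mean ± SD of 13 samples, with open squares for the pooled share without the TRAV15 family. From 10 to 14 residues the share lies between 0.0825% and 0.585%, and it reaches 7.53% at 17, and it goes from 0.597% to 2.66% with inserted bases.

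The count of a member, its clone size, did not differ from that of the rest after adjustment. The mean count of a member relative to the mean count of other functional clonotypes in the same sample was 0.873 and 0.745 at 1.5 months, 0.926, 1.12, 0.942 and 1.05 at 3 months, 0.688 and 0.996 at 5 months, and 1.12, 0.610, 1.01, 0.647 and 0.738 at 7 months. It was below 1 in 9 of 13 samples, with both directions present at 3 and at 7 months. On the log2 scale the mean was -0.21 ± 0.31 (SD, n = 13), a 0.865-fold size, with a two-sided exact sign-flip permutation p of 0.0325 and an adjusted exact p of 0.0568. The median count gave -0.19 ± 0.29 (9 of 13 samples below 0, exact sign-flip permutation p = 0.0251, adjusted exact p = 0.0568). Within J genes or V families, the members' median was set against the average, over members, of the other clonotypes' median in the same segment. This is not the ratio of 2 medians used above. Compared within J genes, the log2 difference was -0.11 for means (exact permutation p = 0.216) and -0.071 for medians (exact permutation p = 0.417). Within V families the differences were larger, at -0.32 for means (exact permutation p = 0.0107) and -0.26 for medians (exact permutation p = 0.00757). Without TRAV15 they were -0.32 (exact permutation p = 0.00684) and -0.33 (exact permutation p = 0.00220). With amino-acid sequences as clonotypes the means gave -0.31 (exact permutation p = 0.00244). All of these p-values are unadjusted, and the size of the difference thus depended on the setting, while its sign was negative in each one run. Removing clonotypes far more abundant in another library gave -0.19 (exact permutation p = 0.0515) and -0.12 (exact permutation p = 0.233). With at least 2 counts the median difference was -0.015 (exact permutation p = 0.837).

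Clonotypes seen with a count of 1 made up 20.4% ± 8.68 of the members and 17.0% ± 5.33 of the others (SD, n = 13). The difference was 3.32 percentage points ± 5.91, above 0 in 11 of 13 samples (exact sign-flip permutation p = 0.0613, adjusted exact p = 0.0858). It ran from -9.72 points in 7-month replicate 3 to 16.5 in 7-month replicate 2, and without 7-month replicate 3 it was 4.41 points (exact permutation p = 0.00146). Without 5-month replicate 2 it was 3.72 points (exact permutation p = 0.0498). With F, I, L, M, V and W only it was 6.31 points (exact permutation p = 0.00977). These 3 p-values are unadjusted. Removing clonotypes far more abundant in another library gave 2.42 points (exact permutation p = 0.159). Among the 100 largest clonotypes of each sample, 10 of 1300 bore the pair, 0 to 2 per sample. The share among these minus the share of all clonotypes was -0.131 percentage points with an SD of 0.773 (exact sign-flip permutation p = 0.523, adjusted exact p = 0.523). It was -0.439 points for the 50 largest (exact permutation p = 0.0938) and -0.0388 for the 500 largest (exact permutation p = 0.741), and without 1 sample it ran from -0.244 (3-month replicate 2) to -0.0501 (7-month replicate 2). Above 0.1% of functional counts lay 1.40% of the members and 1.57% of the other clonotypes. Taken by the number of hydrophobic residues at positions 6 and 7, the mean over samples of the median count was 58.0 with none, 53.1 with 1 and 51.0 with both, with SDs between libraries of 17.2, 16.9 and 18.9. The steps between these 3 classes within samples were not tested.

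**Figure D5:**
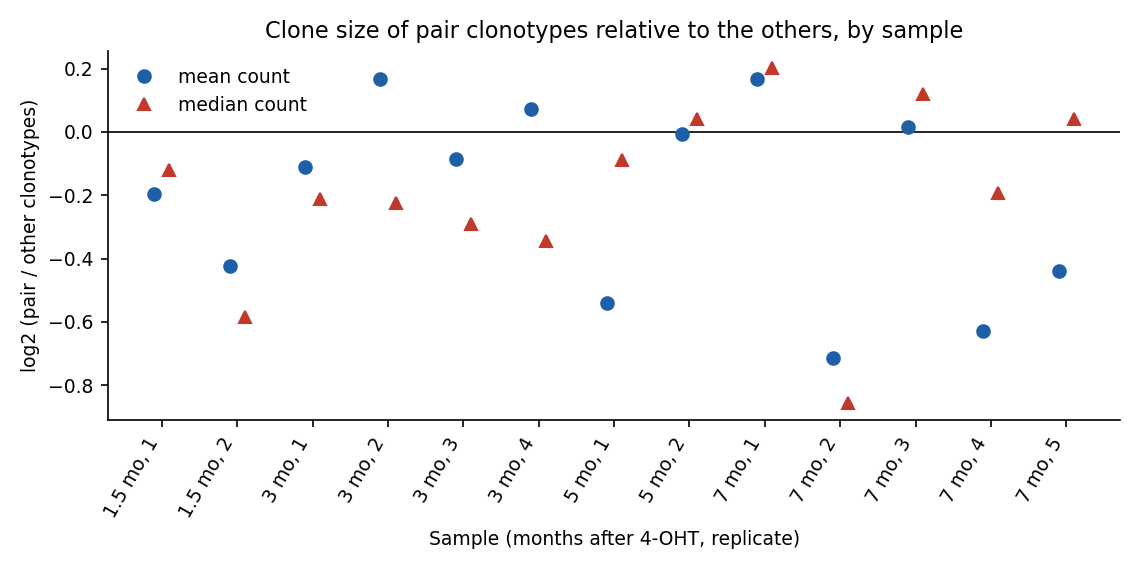
Log2 ratio of the mean count (circles) and of the median count (triangles) of pair clonotypes to that of other functional clonotypes in each of the 13 samples. The means run from -0.71 to 0.17 and the medians from -0.86 to 0.20, both lowest in 7-month replicate 2, and 9 of 13 samples lie below 0 on each.

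In-frame rows with a stop codon make no receptor chain, so the cell is not selected through them. There were 336 such rows of at least 9 residues with the stop outside residues 6 and 7, and 5 of them read a hydrophobic pair at residues 6 and 7 (1.49%, Wilson interval 0.637% to 3.44%), against 0.908% of functional clonotypes. The mean within-sample difference, functional minus stop, was -0.557 percentage points with an SD of 1.98 (exact sign-flip permutation p = 0.327, adjusted exact p = 0.381). Without 1 sample it ran from -0.697 to -0.309 points. It was -0.158 points with F, I, L, M, V and W only and -0.858 within J genes (exact permutation p = 0.611 and 0.138). Stop rows with the pair were absent from 8 of 13 samples, and the interval on their share includes that of functional clonotypes. Each sample held 21 to 35 stop rows, and at a share of 0.908% most samples would hold none with the pair. The test could therefore hardly show a difference.

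The last comparison was of sharing between samples, and it was described without a test. Of the members in a sample, 24.6% ± 11.4 (SD, n = 13) had an amino-acid sequence found in another sample too, from 10.0% to 46.8%, while for other functional clonotypes it was 61.5% ± 2.58, from 58.7% to 67.2%. The ranges did not overlap, and members were lower in 13 of 13 samples. Of the 3 highest values for members, 46.8% and 40.0% belonged to the libraries of 5-month replicate 1 and 3-month replicate 4 that share many nucleotide clonotypes, and the third, 41.1%, to 3-month replicate 1. Members made without inserted bases were found elsewhere in 35.9% of 145 cases, against 73.7% of 24069 other clonotypes without inserted bases. With 5 or more inserted bases it was 13.5% of 192 against 29.2% of 9419. Over CDR3 lengths of 12 to 16 residues the gap was widest at 13, with 24.6% of 69 against 70.2% of 23835, and narrowest at 16, the most frequent length of the members, with 19.9% of 186 against 34.8% of 3370.

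Of 582 distinct member sequences, 73 (12.5%) occurred in at least 2 samples and none in more than 6, while 65 other sequences occurred in all 13. More than 1 nucleotide sequence encoded 8.59% of the member sequences and 23.2% of the others. The amino-acid sequence found in most samples, printed with TRAV13N-1 and TRAJ5, had 71 counts in 1.5-month replicate 1, 73 in 3-month replicate 3, 1 in 3-month replicate 4, 138 and 136 in the 5-month samples and 85 in 7-month replicate 2. It came from 5 V genes and 5 nucleotide sequences over those 6 samples. The other TRAJ5 sequence, printed with TRAV14D-3-DV8, had 430 counts in 1.5-month replicate 2, 1 in 3-month replicate 1, and 119 and 80 in 7-month replicates 1 and 5. The TRAJ23 sequence had 661 and 212 counts in 3-month replicates 3 and 4, 134 in 5-month replicate 1 and 1 in 1.5-month replicate 1, and the same nucleotide sequence encoded it in all 4. The 3-month replicate 4, 5-month replicate 1 and 1.5-month replicate 1 are the libraries that share many nucleotide clonotypes, and their part in this sharing was not tested.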

How the data were processed

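TCRα transcripts of sorted cells were amplified by 5′ RACE with an oligo carrying 12 random bases and sequenced on a MiSeq. The authors assembled clonotypes with MiXCR 3.0.13 and VDJtools 1.2.1 (genome build GRCm38 in the submitters' notes), dropping clonotypes within 2 mismatches of a far larger one. The deposited tables give a count per clonotype, and whether it is of reads or molecules is not stated. The authors also deposited each clonotype's fraction of its sample, which was not used here, and the positions where V ends and J starts, from which inserted bases were computed.

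Python 3.11.15 (numpy 2.4.6, pandas 2.3.3, scipy 1.17.1) computed shares, within-sample differences and exact tests, with 100000 permutations for trends. Segment usage was tested with edgeR 4.0.16 in R 4.3.3 on numbers of clonotypes (filterByExpr, TMM, quasi-likelihood test, Benjamini-Hochberg adjustment), with DESeq2 1.42.0 as an alternative. On simulated data without differences, TMM lowered the fold changes of these sparse columns and library totals did not, so both are given. 3 counts are 3.40e-04% to 6.29e-04% of functional counts per sample. Segments were found in the GENCODE annotation for 147 of 148 names. Members, lists and tests were chosen with earlier results of these data known. Named were, by a fixed rule, the largest pair clonotype per time point and without inserted bases, the 3 most widely shared, the 5 most frequent residue pairs and those with the smallest p, and the V families and J genes with most members, highest and lowest shares (3 each, of at least 500 clonotypes) or smallest p. Same-numbered replicates did not deviate together, so no block was used in the time comparisons. Figures were drawn with matplotlib 3.10.9.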

Additional observations from a re-analysis of the deposited data

How the results depend on the processing

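Apart from the residue pairs, whose filtered test is void, 326 of 362 recomputed values of 17 results kept their direction and side of 0.05, or a count within 1.5 times. CDR3 length and inserted bases kept theirs in every setting run. The time comparisons passed 0.05 in no setting. The clonotype differences at 3 and 7 months stayed negative in all, from -0.283 to -0.0662 and from -0.241 to -0.0236 percentage points without 1 sample, while the other 4 changed sign in at least 1. Leaving out 1 sample moved the 5-month difference in clonotypes from -0.192 to 0.0251 percentage points (positive without 1.5-month replicate 1). The count differences moved from -0.132 to 0.174 at 3 months (negative without 1.5-month replicate 2 or 3-month replicate 4), from -0.230 to 0.160 at 5 months (positive without 1.5-month replicate 1 or 5-month replicate 1) and from -0.272 to 0.0341 at 7 months (positive without 1.5-month replicate 1). The clonotype trend moved from r = -0.341 to 0.0896 (positive without 1.5-month replicate 1 or 7-month replicate 3). Without TRAV15, chosen after the data were seen, the 7-month count difference was 0.00266 points, the clonotype trend r = 0.00415 and the count trend r = -0.102.

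With the replicate number as a block, same-numbered samples correlating at -0.254 for clonotypes and -0.364 for counts over 14 pairs, the differences were -0.144, -0.0835 and -0.125 points for clonotypes and 0.0514, -0.0351 and -0.0912 for counts (exact permutation p from 0.629 to 0.985), and r was -0.167 and -0.324.

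The log2 difference in mean count was -0.15 with at least 2 counts, -0.088 with F, I, L, M, V and W only, -0.19 without clonotypes 100 times more abundant elsewhere, -0.11 within J genes, -0.18 within CDR3 lengths and -0.065 without the 100 largest clonotypes, all with unadjusted exact permutation p above 0.05, and it was -0.32 within V families, -0.32 without TRAV15 and -0.31 with amino-acid sequences as clonotypes, with p from 0.00244 to 0.0107. Leave-one-out values ran from -0.24 to -0.17, with p up to 0.0649 without 1.5-month replicate 2, 5-month replicate 1 or 7-month replicate 2, 4 or 5. The median difference was -0.015, -0.084 and -0.12 under the first 3 of these settings, -0.16 with amino-acid sequences as clonotypes, -0.15 at equal depth and -0.071 within J genes, and ran from -0.23 to -0.14 without 1 sample (exact permutation p up to 0.0503, without 1.5-month replicate 2 or 7-month replicate 2). With F, I, L, M, V and W only, the singleton difference was 6.31 points (exact permutation p = 0.00977) and the top-100 difference 6.75e-04 points. With all 8 letters, the difference for the 50 largest clonotypes was -0.439 points. Leaving out 1 sample, the singleton difference ran from 2.23 to 4.41 points and passed an unadjusted 0.05 without 5-month replicate 2 or 7-month replicate 3. Single V genes in place of families gave 28 calls of 59, 1 higher and 27 lower, with TMM. DESeq2 called 1 V family higher and 8 lower, and 6 J genes higher and 24 lower. At least 2 counts gave 2 V families and 3 J genes higher, and the letters without C and Y gave 2 and 2. With these letters and library totals, chosen after the data were seen, 6 V families (2 higher) and 12 J genes (4 higher) were called. For residue pairs, DESeq2 and the letters without C and Y could not be fitted, since the filter left too few pairs, and without filter and scaling, chosen after the data were seen, 0 of 47 passed. The cause of these shifts was not tested.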
